A study of Homo sapiens with 4 samples.

Results

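The regions described here are the BACH1-bound sites on the long arm of chromosome 3 (3q) in 2 human airway epithelial cell lines, mapped by chromatin immunoprecipitation sequencing (ChIP-seq). A site belonged to the set when its summit lay at 90 Mb of chromosome 3 or beyond (hg19), which gave 1039 of the 10246 regions listed for Calu3 and 101 of the 3393 listed for 16HBE14o-, or 1140 of 13639 in all. Calu3 is a line from a human lung adenocarcinoma. 16HBE14o- is a line of human bronchial epithelial cells. Both were grown in DMEM with 10% fetal bovine serum, no treatment is given in the labels, and the same rabbit antibody against BACH1 was used for both. Each line contributed 2 replicates that the authors combined into 1 list by the irreproducible discovery rate (IDR), a measure of how well the ranks of peaks repeat. A list therefore carries no replicate spread, and nothing below was tested between the lines. The intervals are exact (Clopper-Pearson) 95% intervals that cover counting error only, and neighbouring regions are not independent, so they are too narrow.

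BACH1 binds DNA through a basic leucine zipper, together with a small MAF protein, at sites closely related to those of AP-1 and of NRF2, and mostly represses the genes it binds. Haem releases it from DNA, and its known targets include genes of haem breakdown, iron storage and glutathione synthesis. A peak marks where the antibody enriched DNA and does not show whether a nearby gene was repressed. The series was made to ask how BACH1 bears on CFTR, the chloride channel gene of cystic fibrosis, which lies on another chromosome. As background, the long arm of chromosome 3 carries genes of iron handling, such as TF (transferrin), CP (ceruloplasmin) and TFRC (the transferrin receptor), and epithelial genes such as SOX2 and TP63, which encode transcription factors, CLDN1, which encodes a tight junction protein, and MUC4, which encodes a membrane mucin. The regions were not assigned to genes, and their sequences were not analysed here, so each is given by its position.

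The set was chosen by position and proposed because the arm holds unequal numbers of the listed peaks, so the shares are a description: 10.1% of the Calu3 list (interval 9.56 to 10.7) and 2.98% of the 16HBE14o- list (interval 2.43 to 3.61). At the dividing position, the last Calu3 region before 90 Mb lay at chr3:89429203-89429491 with rank 1969, and the first beyond it at chr3:90065846-90066013 with rank 8241. In 16HBE14o- the neighbours were chr3:89270925-89271164 with rank 2907 and chr3:99261970-99262209 with rank 3256. The longest stretch with no Calu3 region in the set ran from the summit at 90065882 to that at 94364838, on the centromere side. The last Calu3 summit lay at 197445973 and the last of 16HBE14o- at 197445968, and both belong to 1 shared site.

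How strong the sites were within their own list was read from the deposited signal, a fold enrichment in Calu3 and a value on an unstated scale in 16HBE14o-. Each region received a percentile from 0 (weakest) to 100 (strongest). The Calu3 regions of 3q were mostly weak. Their median percentile was 27.1 (interval 24.5 to 29.5, interquartile range 11.6 to 58.3), against 52.1 for the rest of the Calu3 list, and their median fold enrichment was 3.23 against 4.26. The weakest 25% of the Calu3 list (25.0% of it as counted) took in 491 of the 1039 regions (47.3%). The strongest 25% took in 158 (15.2%). A deposited q under 0.05 was carried by 563 of the 1039 (54.2%, interval 51.1 to 57.2), against 73.3% of the whole list.

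The 16HBE14o- regions of 3q spanned the range of their list more evenly but were few among its strongest sites. Their median percentile was 48.3 (interval 38.1 to 57.5, interquartile range 21.0 to 70.6), and the median signal was 29.7 against 30.2 for the rest. The strongest 10% of the list held 3 of the 101 (2.97%, interval 0.617 to 8.44), against 9.99% by construction, and the best rank was 143. In Calu3 the strongest 10% of the list held 67 of the 1039 (6.45%, interval 5.03 to 8.12), against 10.0% by construction, and the best rank was 41. All 101 of the 16HBE14o- regions were exactly 240 bp wide, while those of Calu3 ran from 153 to 820 bp (median 227).

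The Calu3 share of 3q was largest at the weak end of the list. Among the 5 upper deciles of Calu3 signal, 3q held from 5.65% to 6.53% of the regions. In the decile below those it held 7.65%, then 8.63%, 14.3% and 18.5%, and in the weakest it held 21.7% (interval 19.2 to 24.3). The strongest 500 Calu3 regions included 31 of 3q (6.20%, interval 4.25 to 8.69), and the strongest 3393, as many as the whole 16HBE14o- list, included 216 (6.37%, interval 5.57 to 7.24). In 16HBE14o- the share showed no such course along the deciles and lay between 0.885% (3 regions in the strongest) and 5.00% (17 regions in the second weakest). It was low at the strong end, where the strongest 500 included 6 of 3q (1.20%, interval 0.442 to 2.59), against 2.98% of the whole list.

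**Figure D1:**
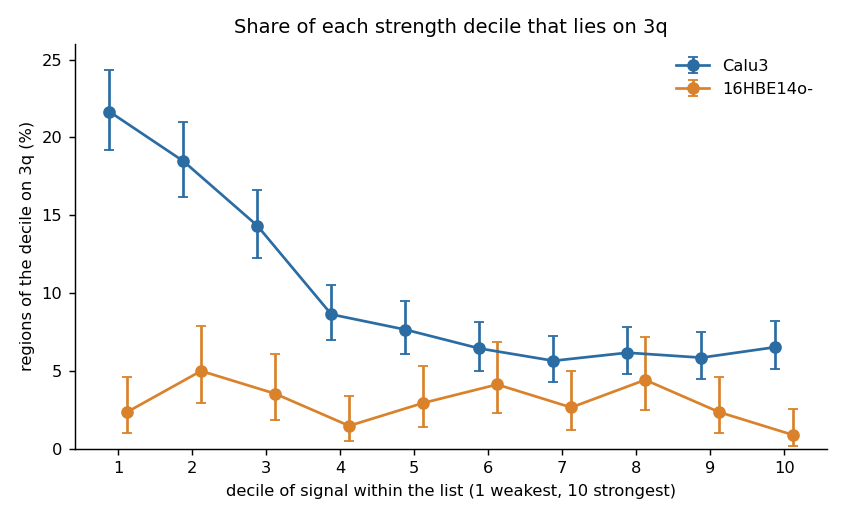
Share of the regions of each signal decile that lie on 3q (vertical axis, percent) for the deciles of each list from the weakest (1) to the strongest (10). Points are shares and bars exact 95% binomial intervals. The Calu3 share is near 6% in the upper deciles and reaches 21.7% in the weakest, while that of 16HBE14o- stays at or under 5.00%.

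Along the arm the regions were counted in 22 steps of 5 Mb, numbered from the centromere side, so that step 1 covers 90 to 95 Mb and step 22 starts at 195 Mb. Calu3, with the longer list (10246 regions against 3393), outnumbered 16HBE14o- in all 22. Steps outside 3q were not compared in this way. Calu3 had 4 regions in step 1, then 15, 27, 21, 31, 20 and 32 in steps 2 to 7. From step 8, which starts at 125 Mb, the numbers were 90, 78, 39, 26 and 45 up to step 12. They were 53, 102, 42, 34 and 66 in steps 13 to 17, and 80, 88, 53, 64 and 29 in steps 18 to 22. Step 14, from 155 to 160 Mb, was thus the fullest, and it held more Calu3 regions than any of the 590 steps of 5 Mb in the genome that held a region of either list. The median step outside 3q held 15 Calu3 regions (interquartile range 9 to 21, maximum 74), and 20 of the 22 steps of 3q lay above that median. Of regions in the upper 50% of the Calu3 list, the median step held 16.5 on 3q and 8 outside it. Of those in the lower 50%, it held 29.5 and 6.

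In 16HBE14o- the steps held 0 to 12 regions, with a median of 4.0, equal to the median of 4 outside 3q. The fullest was step 8 with 12, followed by steps 5 and 22 with 9 each and step 13 with 8. Steps 1 and 15 held none. Across the 22 steps the numbers of both lists were loosely related (Pearson's r = 0.43, Spearman's rho = 0.44, n = 22 neighbouring steps of 1 arm, given as a description). The strongest region of a step met the other list in 10 of 22 steps for Calu3 and in 16 of the 20 that held any for 16HBE14o-. The strongest regions of steps outside 3q were not counted. The longest stretch with no 16HBE14o- region spanned 10.3 Mb, between the summits at 159646728 and 169976456, and it held 88 Calu3 regions.

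**Figure D2:**
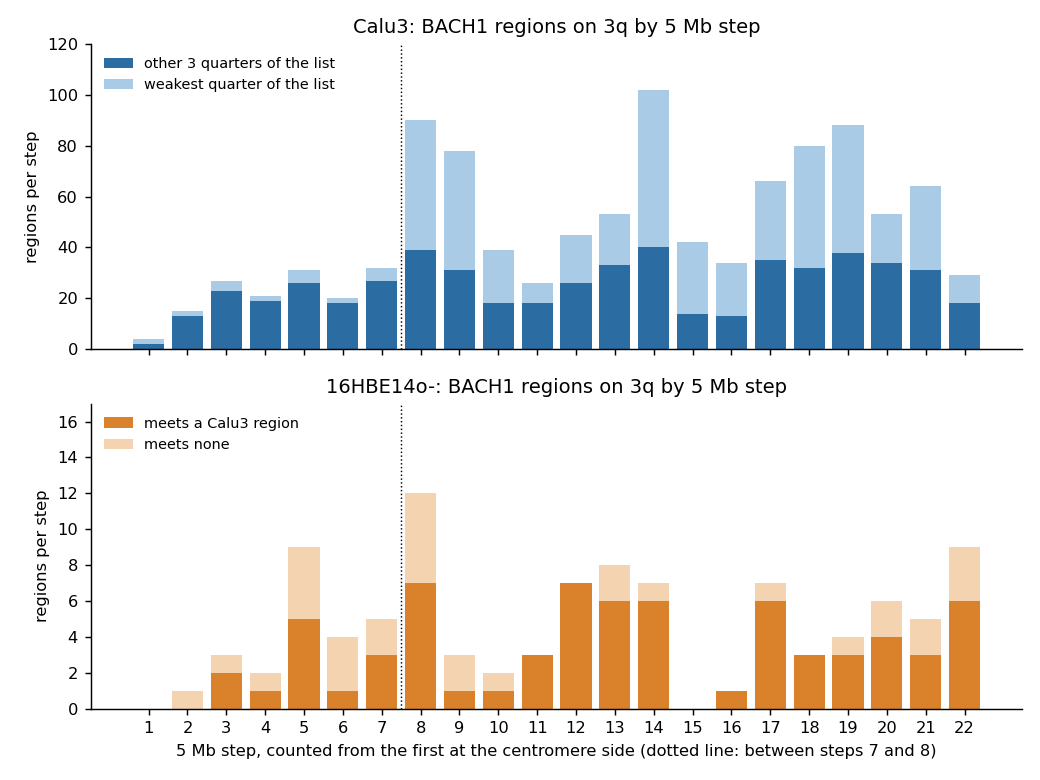
Number of BACH1 regions (vertical axis) in each 5 Mb step of 3q, counted from the centromere side, for Calu3 (top, split by whether the region is in the weakest 25% of its list) and 16HBE14o- (bottom, split by whether it meets a Calu3 region). Weak Calu3 regions are few in steps 1 to 7 and make up 30.8% to 66.7% of each step from step 8 onwards.

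The Calu3 regions differed in strength on either side of 125 Mb. This dividing position was chosen after the steps were seen, so the following values describe it and do not test it. From 90 to 125 Mb, 22 of 150 Calu3 regions (14.7%, interval 9.43 to 21.4) were in the weakest 25% of the list, and the median percentile was 55.7 (interval 50.2 to 62.4). From 125 Mb to the end, 469 of 889 (52.8%, interval 49.4 to 56.1) were in the weakest 25%, and the median percentile was 23.4 (interval 21.5 to 25.5). The median percentile lay between 48.0 and 59.0 in each of steps 2 to 7 and between 10.8 and 38.04 in each of steps 8 to 22, with no overlap. Step 1, with 4 regions, had a median of 22.8. A q under 0.05 was carried by 80.0% of the regions before 125 Mb (interval 72.7 to 86.1) and by 49.8% of those beyond it (interval 46.5 to 53.2), against 75.5% in the rest of the list.

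Before 125 Mb the Calu3 regions were close in strength to those of chromosome 3 below 90 Mb, of which 16.9% (59 of 349, interval 13.1 to 21.3) were in the weakest 25% and whose median percentile was 55.9. By single megabases, 12 Calu3 regions lay from 124 to 125 Mb, with 1 in the weakest 25%, then 12 from 125 to 126 Mb with 5, and 29 from 126 to 127 Mb with 21. From 90 to 125 Mb there were 4.29 Calu3 regions per Mb, and from 125 Mb to the last summit 12.3 per Mb. In 16HBE14o- there were 0.686 and 1.06 per Mb over the same stretches. Taken between the outermost 16HBE14o- summits of each stretch, which leaves out the empty start of the arm, the 16HBE14o- values were 0.957 and 1.08 per Mb. The median percentile of the 16HBE14o- regions was 38.4 before 125 Mb (24 regions, interval 18.97 to 59.2) and 50.9 beyond it (77 regions, interval 40.6 to 59.4), and these intervals overlap.

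The stretch beyond 125 Mb was not uniform. The divisions at 140, 155 and 185 Mb were also drawn after the steps were seen, so the values describe them and do not test them. Steps 11 to 13, from 140 to 155 Mb, held fewer Calu3 regions per Mb (8.28, 124 regions) and stronger ones. Their median percentile was 37.2 (interval 27.1 to 48.8), with 37.9% in the weakest 25%. From 125 to 140 Mb the median was 21.5 over 207 regions (13.9 per Mb), and from 155 to 185 Mb it was 19.3 over 412 (13.8 per Mb). From 185 Mb it was 31.2 (interval 23.7 to 39.0) over 146 regions (11.8 per Mb). These numbers per Mb were taken between the outermost summits of each stretch. The lowest step was step 15, from 160 to 165 Mb, with a median of 10.8 and 28 of its 42 regions in the weakest 25%, yet it also held the third strongest Calu3 site of the arm.

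**Figure D3:**
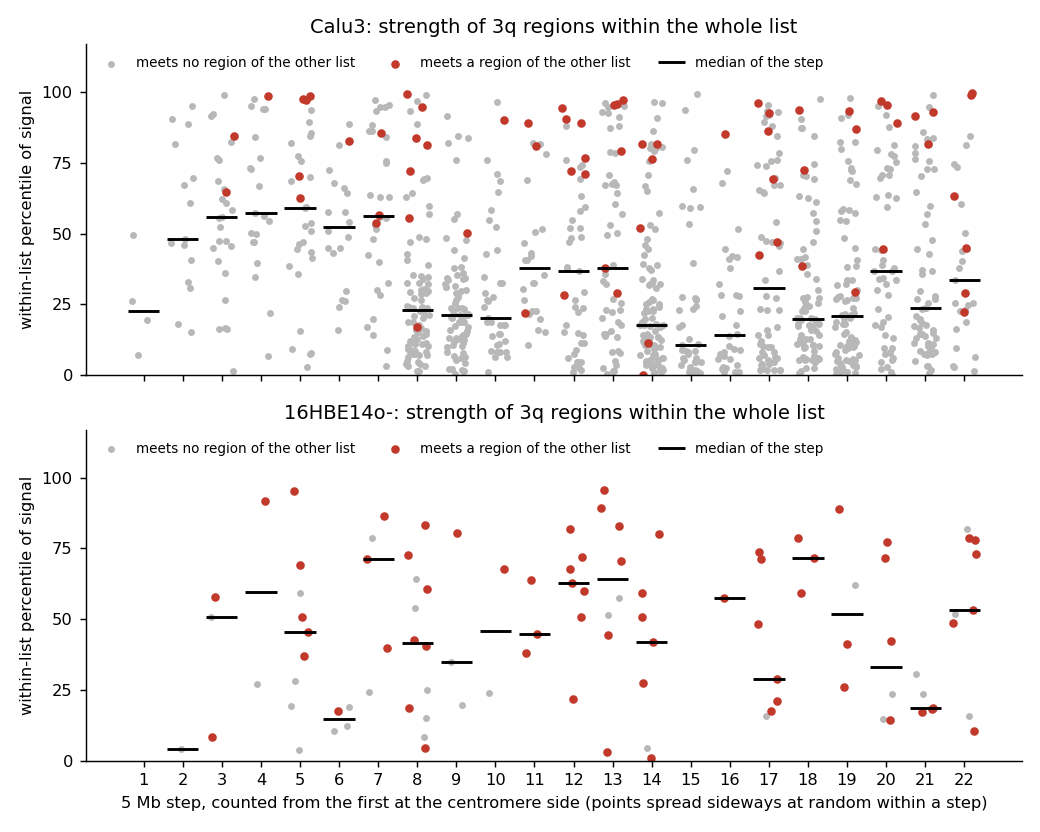
Within-list percentile of signal (vertical axis, 0 weakest to 100 strongest) of each region of 3q by 5 Mb step, for Calu3 (top) and 16HBE14o- (bottom). Red points meet a region of the other list, grey points do not, and black bars are step medians. The Calu3 medians lie between 48.0 and 59.0 in steps 2 to 7 and at or under 38.04 from step 8.

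The relation of fold enrichment to p-value of the Calu3 peaks also differed on either side of that position. For Calu3 regions with a fold enrichment of 4 or more, the deposited −log10 p was divided by the median −log10 p of the 200 regions outside 3q that were nearest in fold enrichment. The ratio had a median of 0.963 (interquartile range 0.854 to 1.05) for the 98 such regions before 125 Mb and of 1.50 (interquartile range 1.29 to 1.78) for the 241 beyond it. In steps 2 to 7 the step medians ran from 0.901 to 1.10, and in steps 8 to 22 from 1.36 to 1.81, again with no overlap. On the scale of the deposited values, regions with a fold enrichment from 6 to 10 had a median −log10 p of 19.6 before 125 Mb (25 regions), 28.4 beyond it (74 regions) and 18.8 in the rest of the list (1561 regions). Of those 74, 68 lay above the median of the rest. On chromosome 3 below 90 Mb the median was 16.1 (60 regions), and on chromosome 20 from 30 Mb it was 25.4 (31 regions), so a raised −log10 p at this fold was also seen outside 3q. For weak regions the −log10 p was compared over 3q as a whole, not on either side of 125 Mb. A raised median was not seen on 3q below a fold of 3. From 2.5 to 3 in fold, the median −log10 p was 3.58 on 3q (268 regions) and 3.56 in the rest (1118 regions). From 2 to 2.5 it was 2.85 and 3.02. From 3 to 4 it was 5.36 on 3q (290 regions) and 5.10 in the rest (2477 regions). Over all 889 regions beyond 125 Mb, whatever their fold, the median ratio was 1.11 (interquartile range 0.948 to 1.40). By stretch it was 0.963 from 125 to 140 Mb (207 regions), 1.32 from 140 to 155 Mb, 1.08 from 155 to 185 Mb and 1.26 from 185 Mb. Read depth and DNA content along the chromosome were not analysed here, and their part in the number and strength of these regions was not tested.

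**Figure D4:**
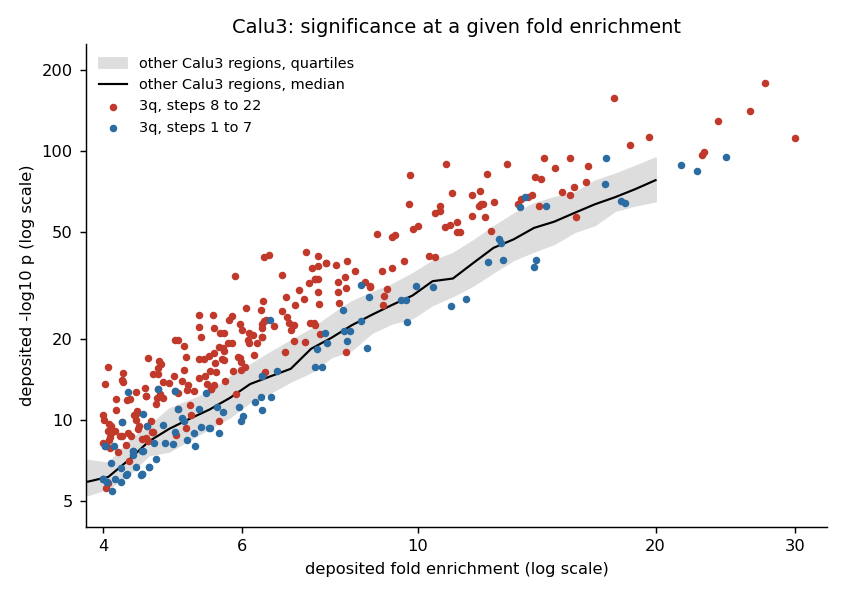
Deposited −log10 p (vertical log axis) against deposited fold enrichment (horizontal log axis) of the Calu3 regions of 3q with a fold of 4 or more. The black line and grey band are the median and quartiles of −log10 p among the 200 other Calu3 regions nearest in fold. Regions of steps 1 to 7 (blue) follow the line, with a median ratio to it of 0.963, and those of steps 8 to 22 (red) lie above it, with a median ratio of 1.50.

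Whether a site was found in both lines was judged by an overlap of at least 1 bp. On 3q, 69 Calu3 regions and 69 of 16HBE14o- met, pairing one to one. They were 6.64% of the 1039 Calu3 regions (interval 5.20 to 8.33), where 15.3% of the whole list was shared and 16.3% (interval 15.6 to 17.1) of the rest. They were 68.3% of the 101 regions of 16HBE14o- (interval 58.3 to 77.2), where 46.5% of the whole list was shared and 45.9% (interval 44.2 to 47.6) of the rest. With 3q, chromosome 3 below 90 Mb and the other chromosomes set side by side (24 units with at least 30 regions, most of them whole chromosomes), 3q had the lowest shared percentage of Calu3 and the highest of 16HBE14o-. The next lowest for Calu3 was chromosome 3 below 90 Mb with 8.02% (interval 5.40 to 11.4, which overlaps that of 3q). The next highest for 16HBE14o- was chromosome 10 with 66.7% (58 of 87), within the interval of 3q. Chromosome 3 below 90 Mb had the lowest shared percentage of 16HBE14o-, 28.3%. Both percentages of 3q divide the same 69 pairs, by 1039 in Calu3 and by 101 in 16HBE14o-, so they are linked and not separate results. The part that the larger number of Calu3 regions on 3q has in them was not tested further.

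The summits of paired sites lay close together. The median distance between the paired summits was 17 bp (interquartile range 9 to 32), against 19 bp for the 1510 pairs outside 3q, and in 59 of the 69 (85.5%) the summits were at most 50 bp apart, against 87.6%. In 3 pairs the summits were more than 100 bp apart, with a maximum of 313 bp. In 68 of the 69 pairs the Calu3 region had a q under 0.05, against 1408 of the 1510 pairs outside 3q. The exception on 3q, at chr3:156806743-156806895, had a −log10 q of 0 and rank 10228 in Calu3, and its counterpart ranked 3360 in 16HBE14o-, so that both were near the end of their lists. A q of 0.05 or more was carried by 26.7% of the whole Calu3 list and by 476 of the 1039 regions of 3q. Of these 476, 1 was shared (0.210%), against 4.52% of such regions in the rest of the list.

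Set side by side at like strength, in 4 bands of 25% of each list, the shared percentage of 3q was below that of the rest in all 4 bands of Calu3 and above it in all 4 of 16HBE14o-. The bands of both lists divide the same pairs, so they are not separate results. In the strongest 25% of Calu3, 40 of 158 were shared (25.3%, interval 18.7 to 32.8), against 37.2% of the rest (interval 35.3 to 39.2). In the weakest 25% 5 of 491 were shared (1.02%, interval 0.331 to 2.36), against 5.59% (interval 4.64 to 6.67). In the 2 bands between them the intervals of 3q and the rest overlapped, with 4.27% against 8.30% in the lower and 8.97% against 12.5% in the upper. Chromosome 3 below 90 Mb was also below the rest in all 4 Calu3 bands, with 5.08%, 4.08%, 1.94% and 21.3% from the weakest to the strongest, and in 3 of the 4 it was below 3q. If the rest of the Calu3 list had the same makeup by these 4 bands as 3q, its shared percentage would be 12.04%.

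In 16HBE14o-, 14 of the 31 regions of 3q in the weakest 25% were shared (45.2%, interval 27.3 to 64.0), against 17.6% of the rest (interval 15.1 to 20.4). In the next 25% 16 of 21 were shared (76.2%, interval 52.8 to 91.8), against 30.3%, and in the one above it 24 of 32 (75%, interval 56.6 to 88.5), against 50.7%. In the strongest 25% 15 of 17 were shared (88.2%, interval 63.6 to 98.5), and the 84.4% of the rest lay within that interval. The gap was thus widest in the 2 bands of weaker 16HBE14o- regions and was within counting error in the strongest band. When Calu3 was held to its 3393 strongest regions, 45.5% of the 101 were shared (interval 35.6 to 55.8), against 30.6% of the rest (interval 29.0 to 32.2).

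**Figure D5:**
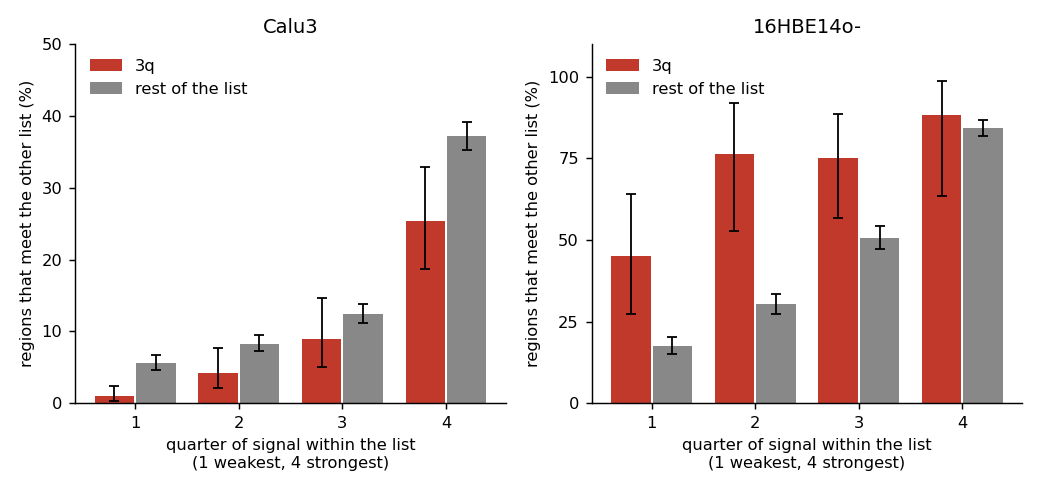
Percentage of regions that meet a region of the other list (vertical axis, on a different scale in each panel) by band of signal, each 25% of the list,, for 3q (red) and the rest of the list (grey), in Calu3 (left) and 16HBE14o- (right). Bars are shares and lines exact 95% binomial intervals. In the weakest 25% 3q has 1.02% against 5.59% in Calu3 and 45.2% against 17.6% in 16HBE14o-.

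Sharing also varied along the arm. Before 125 Mb, 12 of the 24 regions of 16HBE14o- were shared (50%, interval 29.1 to 70.9), and beyond it 57 of 77 (74.0%, interval 62.8 to 83.4), with overlapping intervals. All regions of 16HBE14o- were shared in 4 steps, namely step 11 (3 regions), step 12 (7), step 16 (1) and step 18 (3). In step 6, 1 of 4 was. For Calu3 the percentage was 8.00% before 125 Mb (12 of 150, interval 4.20 to 13.6) and 6.41% beyond it (57 of 889, interval 4.89 to 8.23). It was highest in step 22 with 6 of 29, and it was 0 in step 1, in step 2 and in step 15, where none of 42 was shared.

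Within the pairs, the Calu3 region usually held the higher place in its list. Its percentile exceeded that of its 16HBE14o- counterpart in 54 of the 69 pairs (78.3%), against 64.3% of the pairs outside 3q. The median percentile of the paired regions was 81.5 in Calu3 and 57.6 in 16HBE14o-, against 82.5 and 72.8 for the pairs outside 3q. Both members were in the upper 50% of their lists in 36 of the 69 pairs, both in the lower 50% in 12, and the Calu3 member alone was in the upper 50% in 18. Outside 3q these numbers were 943, 137 and 258 of 1510 pairs. The percentiles were related across the 69 pairs (Spearman's rho = 0.48, given as a description across sites of the same 2 lists), against a rho of 0.53 outside 3q. Ranks from lists of different lengths do not show whether binding differed.

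The strongest shared site, by the sum of its ranks, lay at chr3:152856464-152856703 in 16HBE14o-, where it had a signal of 96.8 and rank 143. Its counterpart in Calu3, at chr3:152856350-152856858, had a fold enrichment of 17.7 and rank 272. A further shared site lay shortly before it, at chr3:152769980-152770219, with rank 368 in 16HBE14o- and rank 462 in Calu3. The site next in rank sum, at chr3:107086170-107086409, had a signal of 74.9 and rank 277 in 16HBE14o- and a fold enrichment of 21.6 and rank 148 in Calu3, with summits 1 bp apart. The third, at chr3:112395706-112395945, had a signal of 93.1 and rank 159 in 16HBE14o- and a fold enrichment of 17.3 and rank 287 in Calu3.

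Among the other sites with low rank sums, 3 stood much nearer the top of the Calu3 list. At chr3:128930690-128931127 Calu3 had a fold enrichment of 27.5 and rank 63, and 16HBE14o- had rank 568. At chr3:196066575-196067005 Calu3 had its strongest site of the arm, with a fold enrichment of 30.02 and rank 41, and 16HBE14o- had rank 720. The shared site nearest the end of the chromosome, chr3:197445750-197446109, had rank 118 in Calu3 and 752 in 16HBE14o-. The other 3 lay at chr3:151554797-151555275, chr3:181500007-181500599 and chr3:149084818-149085293 in Calu3, with Calu3 ranks of 423, 683 and 593 and 16HBE14o- ranks of 579, 371 and 618. Over the 10 sites with the lowest rank sums the summits were at most 18 bp apart. Of these 10, 8 lay beyond 125 Mb, as did 57 of all 69 pairs.

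Of the 10 strongest Calu3 regions of 3q, 5 were shared, and of the 10 strongest of 16HBE14o-, 9 were. The sites that begin at 107085996 and 128930690 in Calu3 belonged to both sets. Outside 3q, 53.9% of the Calu3 regions with a fold enrichment of 10 or more were shared (548 of 1016). On 3q, 22 of 68 such regions were (32.4%). In the strongest band of 16HBE14o-, 84.4% of the regions outside 3q were shared. The counts of 5 and 9 were thus close to the shares elsewhere, and whether they are particular to the arm was not tested. Among the strongest of 16HBE14o-, the site at chr3:123511785-123512024 stood out by its counterpart, since it ranked 465 with a signal of 57.8 and the Calu3 region ranked 4718 with a fold enrichment of 4.36. The reverse held for the shared Calu3 region at chr3:113006062-113006529, which ranked 126 with a fold enrichment of 22.6 while its counterpart ranked 1852.

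The strongest Calu3 site of the arm with no 16HBE14o- counterpart lay at chr3:164977171-164977910, in the long stretch without regions of 16HBE14o-. It had a fold enrichment of 26.4, a −log10 q of 135 and rank 73, and the nearest 16HBE14o- summit was 4999 kb away. It was followed by chr3:102179287-102179840 with a fold enrichment of 24.6 and rank 89 and by chr3:194707265-194707784 with 24.0 and rank 97. The next were chr3:126259147-126259810 with 22.9 and rank 120, and chr3:183827934-183828459 with 19.6 and rank 211. For these 4 the nearest 16HBE14o- summit was 757, 667, 332 and 1317 kb away. Of the 970 unshared Calu3 regions, 2 had a 16HBE14o- summit within 500 bp and 226 (23.3%) had none within 1 Mb. Such distances were not computed for the unshared regions elsewhere in the list, so whether these values are particular to the arm was not tested.

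In 16HBE14o- the strongest site with no Calu3 counterpart lay at chr3:197033228-197033467, with a signal of 49.6 and rank 615. The next lay at chr3:124114122-124114361 with a signal of 45.0 and rank 726. Weaker ones followed at chr3:128598198-128598437 (rank 1218), chr3:182511080-182511319 (rank 1284) and chr3:111697710-111697949 (rank 1385). Their nearest Calu3 summits were 66.1, 80.0, 10.3, 52.5 and 21.7 kb away, in that order. None of the 32 unshared 16HBE14o- regions had a Calu3 summit within 500 bp, and all 32 had one within 0.378 Mb. Here too the unshared regions elsewhere in the list were not measured. The depth of the lists is unknown, so a site listed in 1 line alone may be present in the other.

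The spacing of the regions goes with their number on the arm, for which the set was proposed, so the following values are a description. They were not set against the spacing that this number alone would give. Neighbouring Calu3 summits were a median of 45.6 kb apart (interquartile range 13.5 to 120 kb), against 127 kb elsewhere in the list. In 16HBE14o- the median was 358 kb against 213 kb. Divided into windows of 100 kb, the arm had 119 with at least 3 Calu3 regions, and these held 482 of the 1039 regions (46.4%, interval 43.3 to 49.5), against 21.0% of the rest of the list (interval 20.1 to 21.8). In 16HBE14o- there were 3 such windows, with 9 of the 101 regions (8.91%, interval 4.16 to 16.2), against 17.8% of the rest (interval 16.5 to 19.1). The Calu3 regions inside these windows had a median percentile of 24.1 and those outside them 29.04, both below the 52.1 of the rest of the list.

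The fullest Calu3 window, from 149000001 to 149100000, was also 1 of the 3 fullest of 16HBE14o-. It held 10 Calu3 regions, 8 of them with a q under 0.05, and 3 of 16HBE14o-, all of them shared. The strongest there ranked 593 in Calu3 and 618 in 16HBE14o-. The next Calu3 windows started at 126700001 and 193500001, with 9 regions each, and at 134600001, 134800001 and 159800001, with 8 each. Of the regions in these 5, a q under 0.05 was carried by 1 of 9, 7 of 9, 2 of 8, 1 of 8 and 5 of 8, in that order. None of these regions was shared, and 16HBE14o- had 1 region in the window at 193500001 and none in the other 4. In 16HBE14o- the windows starting at 152800001 and 197000001 held 3 regions each, of which 3 and 1 were shared. The further windows of 16HBE14o- held 2 regions or fewer.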

How the data were processed

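Human cell lines Calu3 and 16HBE14o- were each profiled in 2 BACH1 ChIP-seq samples, and 1 peak list per line, pooled over its replicates by IDR per the labels, was used. Per the file headers the lists are in the narrowPeak layout, but by name that of Calu3 is a narrowPeak list and that of 16HBE14o- a regionPeak list. Whether both were called in the same way is unknown. The build is hg19, per the submitters' processing notes. The sources used here do not name the aligner, caller, filters or control. Each Calu3 peak was deposited with a fold enrichment (read as such from the layout and the values), a −log10 p and a −log10 q. Each 16HBE14o- peak was deposited with a signal on an unstated scale, a display score and another score in place of q. Read depth is unknown.

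Overlapping rows were merged (no row of 3q was affected), ranked by signal within the list and given percentiles. Bands of 25% and deciles are of the whole list. Coordinates are 1-based. The regions named are the 10 strongest per list, the 10 shared ones with the lowest rank sum, the 5 strongest unshared per list, the 5 fullest windows of 100 kb per list (6 in Calu3 with ties, and 3 in 16HBE14o-, since many tie below them) and those on either side of 90 Mb. Members and lists were chosen with earlier results of these data known. The shared region that ranked 10228 in Calu3 was chosen after its values were seen. Intervals of medians are binomial. No test was run, since each line is 1 pooled list. The planned gene annotation and motif counts were not run. Overlap and merging were tested on simulated data. Python 3.11.15, numpy 2.4.6, scipy 1.17.1 and pandas 2.3.3 were used. Alternatives changed merging, the first position, list length, the overlap rule, the ranking column and the windows.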

Additional observations from a re-analysis of the deposited data

How the results depend on the processing

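The alternatives for the position of the division, for the −log10 p ratio, for percentiles without dense windows and for 16HBE14o- sharing with q-restricted Calu3 regions were chosen after seeing the data (21 of 63 values). Of all 63, 41 stayed within the interval of the reported value or within 1.5 times the reported count, and 22 did not. In the upper 50% of each list, the Calu3 share of 3q was 6.12%, its shared percentage 11.5%, its median percentile (among the stronger 50%) 50.8, and 16 Calu3 windows and 1 of 16HBE14o- held 3 or more regions. With Calu3 at the length of the 16HBE14o- list, the Calu3 share was 6.37%, its windows 4, and the shared percentages 21.3% in Calu3 and 45.5% in 16HBE14o-. With q under 0.05 the Calu3 values were 7.49%, 12.1% shared, a median percentile of 38.6 and 42 windows. Without windows of 3 or more regions the Calu3 share was 7.11% and that of 16HBE14o- was 3.29%. The arm was proposed for its unequal numbers of peaks, so this difference is a description only. Under the same setting, 57.04% of the Calu3 regions beyond 125 Mb were in the weakest 25%. A reciprocal overlap of 50% gave 56.4% shared in 16HBE14o-. Ranking by −log10 p gave a Calu3 median percentile of 32.6 and 49.2% beyond 125 Mb in the weakest 25%. Dividing at 130 Mb gave 30.4% before the division. The −log10 p ratio beyond 125 Mb was 1.33 with folds of 3 or more. Against chromosome 3 below 90 Mb, with 50 neighbours, it was 1.73, and 1.08 before 125 Mb. The shared percentage of 3q was below that of the rest in Calu3 and above it in 16HBE14o- for the whole lists, the equal lengths, the reciprocal overlap, the upper 50% and the restriction to q under 0.05. In each setting both percentages divide the same pairs by the unequal numbers of regions for which the arm was proposed. Their opposite directions are therefore partly built in and give no separate support. Causes were not tested, apart from the shorter lists by construction. The settings for motifs, and gene annotation, were not run. No paired analysis was possible because the 2 replicates of a line are pooled in its list, so that none could be left out either.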

Other observations

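The ratio of −log10 p to that of regions of like fold enrichment was also computed for the other chromosomes of Calu3, over regions with a fold of 4 or more. Of 24 units with at least 30 such regions, of which most are whole chromosomes, 3q had the highest median (1.35), followed by chromosome 7 (1.17), chromosome 5 (1.14) and chromosome 15 (1.13). Chromosome 3 below 90 Mb, at 0.885, was in place 19, and chromosome 13, at 0.819, was the lowest. Chromosome 20 from 30 Mb onwards had a −log10 p close to that of 3q at like fold. The medians were 10.5 and 10.9 at folds from 4 to 6, 25.4 and 25.6 from 6 to 10, and 64.0 and 65.7 from 10 upwards, against 8.93, 18.8 and 50.9 in all regions outside 3q. On this part of chromosome 20, 49.4% of 344 Calu3 regions were in the weakest 25% of the list, against 47.3% on 3q. There, however, 25.6% of the Calu3 regions were shared (interval 21.1 to 30.5), against 6.64% on 3q, and 27.7% of 318 regions of 16HBE14o- (interval 22.8 to 32.9), against 68.3% on 3q.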
